A study of Mus musculus with 2 samples.

Results

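The 7 mRNAs described here, mt-Nd1, mt-Nd2, mt-Nd3, mt-Nd4, mt-Nd4l, mt-Nd5 and mt-Nd6, encode the subunits of respiratory complex I that the mitochondrial genome carries. They were chosen by name, whatever their level, and all 7 are among the 15046 genes of the count table. The cells were cultured neural stem/progenitor cells (NSPCs) from the subventricular zone of male C57/Bl6 mice aged 6 to 8 weeks, grown with EGF and FGF2 at 20 ng/ml each and stably carrying PLIN2-GFP, a retrovirally delivered fusion of green fluorescent protein with the lipid droplet coat protein perilipin 2. Single cells from the dimmest 25% and from the brightest 25% of the GFP range, the low and high PLIN2-GFP NSPCs (low and high cells in what follows), went into wells of 384-well plates, and both categories carry the transgene. The 2 plates hold cells of 1 line. With the plate as a block, p-values measure the spread left between sums after plate differences, and not between lines or animals.

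Complex I takes electrons from NADH, passes them to ubiquinone and pumps protons out of the matrix. Its membrane arm is built around the subunits that mitochondrial DNA encodes, while the core subunits of its matrix arm and all accessory subunits are encoded in the nucleus. Mitochondrial DNA is transcribed from both strands into long precursors, from which the mRNAs are cut out, so that mRNAs of one strand start from the same transcript and differ afterwards in processing and decay. Quiescent and activated neural stem cells are known to differ in their use of fatty acid oxidation and oxidative phosphorylation.

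All but mt-Nd6 lie on the plus strand of chromosome M in GRCm38, and mt-Nd6 lies on the minus strand. SORT-seq primes on poly(A) and counts molecules at their 3′ ends with unique molecular identifiers (UMIs). The final 60 bases of each annotated gene (GENCODE M21, strand of the gene) are shown, with the last codon in capitals. Whether the counted molecules were primed at these annotated ends was not examined, so counts of different genes may not rank their mRNAs by abundance. For mt-Nd4 the capital is the 1 base left over after 459 codons, a stop codon that is completed by the poly(A) tail.
mt-Nd1: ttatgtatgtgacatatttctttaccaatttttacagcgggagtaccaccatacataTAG
mt-Nd2: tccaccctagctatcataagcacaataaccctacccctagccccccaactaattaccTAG
mt-Nd3: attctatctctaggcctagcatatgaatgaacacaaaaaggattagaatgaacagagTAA
mt-Nd4l: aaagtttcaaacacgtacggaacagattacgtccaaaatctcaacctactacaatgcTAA
mt-Nd4: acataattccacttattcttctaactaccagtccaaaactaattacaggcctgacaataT
mt-Nd5: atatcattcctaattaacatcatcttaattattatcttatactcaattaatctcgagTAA
mt-Nd6: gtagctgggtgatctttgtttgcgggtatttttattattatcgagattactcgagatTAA

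In order along the genome, mt-Nd1 spans chrM:2751-3707, mt-Nd2 chrM:3914-4951, mt-Nd3 chrM:9459-9806, mt-Nd4l chrM:9877-10173, mt-Nd4 chrM:10167-11544, mt-Nd5 chrM:11742-13565 and mt-Nd6 chrM:13552-14070. mt-Nd4l and mt-Nd3 (348 bases) are the shortest of them and mt-Nd5 (1824 bases) is the longest. The last 7 bases of mt-Nd4l are the first 7 of mt-Nd4, on the same strand. Each gene is called an mRNA here, but whether these were counted from separate molecules or from a shared mRNA was not examined. The lower counts of mt-Nd4l are therefore no evidence of a rarer transcript. The last bases of mt-Nd5 and of mt-Nd6 overlap by 14 bases on opposite strands, and the strand setting of the counting is not given in the sources used here.

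Several of these mRNAs have copies in the nuclear genome that the annotation lists as genes, and the counts are divided between gene and copy. Gm28438 (chr1:24612775-24613119, minus strand) equals mt-Nd3 at 344 of 345 aligned bases, with T3C as the substitution, counted from the first base of mt-Nd3. Gm10222 (chr1:24612407-24612700, minus strand) equals mt-Nd4l over the whole length of the copy, with 0 mismatches. The first 40 bases of each pair are shown, with the differing base in capitals. Every other aligned base of either pair is identical. A read that lies within the aligned bases and misses this base thus has the same letters in gene and copy. Both copies are annotated as shorter than their genes (345 beside 348 bases for mt-Nd3). The last bases of the genes were not compared with the sequence beyond the copies.
mt-Nd3: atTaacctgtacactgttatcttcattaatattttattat
Gm28438: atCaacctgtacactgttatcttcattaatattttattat
mt-Nd4l: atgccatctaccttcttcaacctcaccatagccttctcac
Gm10222: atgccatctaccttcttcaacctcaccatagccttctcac

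The deposited values show that division cell by cell. Of the 300 cells with a count for mt-Nd3 or Gm28438, 16 gave mt-Nd3 over 99% of the pair's counts, 2 lay between, and all the others gave it 50% to within 1 percentage point. The 16 cells were 4 low and 8 high cells of plate 1 and 4 high cells of plate 2, and none of the 72 low cells of plate 2. They held 673 of the 4674 counts of mt-Nd3. For mt-Nd4l and Gm10222, 2 cells lay above 99% and all others at 50%. Values of mt-Nd3 and mt-Nd4l are therefore given below as deposited and, where it changes what they show, with the nuclear copies added.

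**Figure D1:**
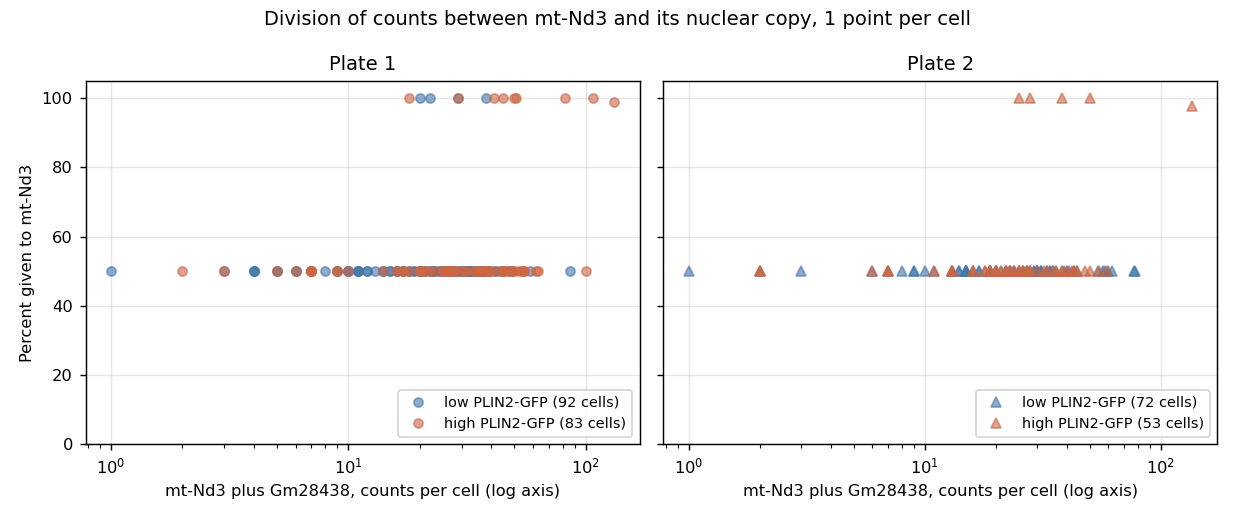
Each point is 1 cell, with the summed counts of mt-Nd3 and its nuclear copy Gm28438 on a log x axis and the percentage of them given to mt-Nd3 on the y axis, by plate and PLIN2-GFP category. Cells sit at 50% except for 16 above 99% and 2 between, which are mostly high cells.

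The other copies took fewer counts. Gm11407 on chromosome 4, which matches mt-Nd5 at 84.7% of 1058 aligned bases, held 2583 counts beside 24847 for mt-Nd5. Gm4076 on chromosome 13 held 180.9 counts beside the same gene, and Gm13339 on chromosome 2 held 120 beside the 37657 of mt-Nd2. Gm28439, which repeats 876 bases of mt-Nd4 without a mismatch, was not in the count table. All counts of mt-Nd1, mt-Nd4 and mt-Nd6 were whole numbers within 1e-06.

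Plate 1 gave 95 low and 84 high cells, and plate 2 gave 72 and 53. Totals per cell ranged from 1170 to 34630 counts, and the median was 7856 in low and 11709 in high cells of plate 1, and 11955 and 14729 on plate 2. Low and high cells lay in different rows of each plate, so row effects and category effects cannot be told apart. The plates use the same set of well barcodes, and 59 barcodes belong to a cell on each plate. Of 5 NSPC markers (Fabp7, Vim, Nes, Hes1 and Sox2) all had counts in each category, with a summed level of 6294 to 6404 CPM (counts per 1000000 counts). None of 4 microglial markers was in the count table. The summed levels were 48.6 to 61.8 CPM for 4 neuronal, 65.3 to 111.8 for 4 astrocytic and 2185 to 2408 for 4 oligodendrocyte lineage markers. Of these, Mbp, Pdgfra and the neuronal Dcx and Tubb3 were also absent from the count table. The astrocytic markers were higher in the high than in the low sum of both plates (111.8 and 81.7 CPM, 87.4 and 65.3 CPM), and their part in the results was not tested.

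Counts were summed over the cells of a plate and category, which gave 4 sums of 778022 to 1029023 counts, and scaled by edgeR's TMM factors. The 7 mRNAs made up 4.29% of all counts, 35.6% of all mitochondrial counts and 48.9% of the counts of the 13 mitochondrial mRNAs. mt-Nd1 (11297 ± 937 TMM-scaled CPM, SD, n = 4 sums), mt-Nd2 (11166 ± 836) and mt-Nd4 (11704 ± 694) were counted most. mt-Nd5 followed with 7391 ± 744 TMM-scaled CPM. mt-Nd3 (1363 ± 240) and mt-Nd4l (1019 ± 95.2) were counted less often, and mt-Nd6 had 108.4 ± 22.7 TMM-scaled CPM, or 365 counts in all.

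Levels of different genes were compared per length, as TMM-scaled CPM per kb, although a method that counts 3′ ends gives 1 count per molecule whatever its length. mt-Nd1 had 11805 ± 979 TMM-scaled CPM per kb (SD, n = 4 sums) and mt-Nd2 10757 ± 806, and their ranges overlapped, although mt-Nd1 was higher in 4 of 4 sums. mt-Nd4, at 8493 ± 504, was below both without overlap per kb. Not divided by length, its mean was the highest (11704 TMM-scaled CPM, beside 11297 for mt-Nd1 and 11166 for mt-Nd2). mt-Nd5 (4052 ± 408), mt-Nd3 (3917 ± 690) and mt-Nd4l (3430 ± 320) overlapped each other. mt-Nd6, the one mRNA here that is read from the opposite strand, had 208.8 ± 43.7 TMM-scaled CPM per kb, 16.4 times less than mt-Nd4l. Whether priming on poly(A) caught mt-Nd6 as well as the others was not examined, so this gap may not be one of abundance. With the nuclear copies added, mt-Nd3 had 7093 ± 1165 and mt-Nd4l 6797 ± 691 TMM-scaled CPM per kb, above mt-Nd5 at 4502 ± 474. The order per kb in the lower group thus depends on how shared reads are assigned. Not divided by length, and with copies added, mt-Nd5 had at least 7122 TMM-scaled CPM, while mt-Nd3 had at most 2866 and mt-Nd4l at most 2277.

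**Figure D2:**
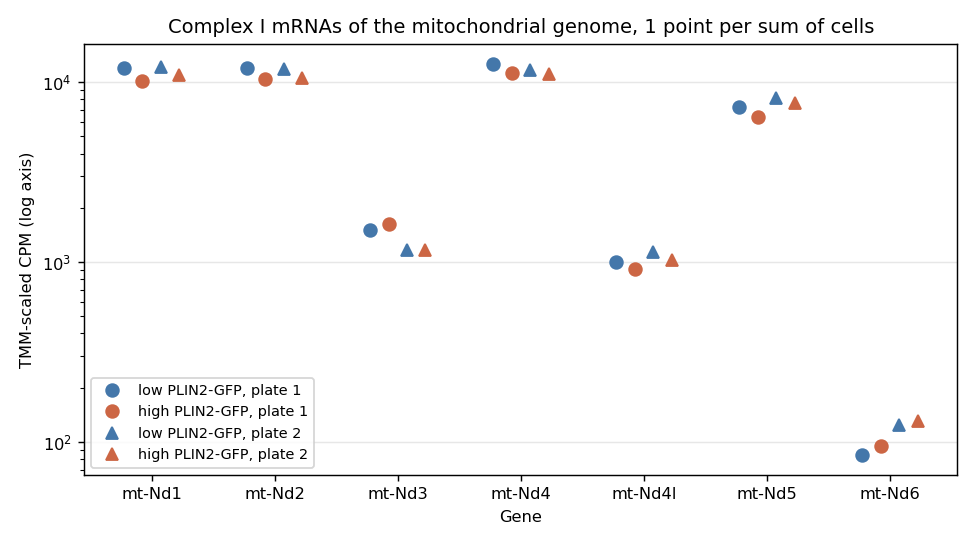
TMM-scaled CPM on a log y axis of the 7 mRNAs in the 4 sums of cells, with colour for the PLIN2-GFP category and marker shape for the plate. mt-Nd1, mt-Nd2 and mt-Nd4 lie between 10129 and 12672, and mt-Nd6 between 84.2 and 131.2.

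High and low cells were compared to ask whether cells with more lipid droplets differ in these mRNAs. The levels of mt-Nd1 and mt-Nd2, membrane arm subunits next to the quinone site and in the proton-pumping arm, were lower in high cells relative to all counts, but were not lower relative to all mitochondrial RNA. mt-Nd1 had 11932 and 12165 TMM-scaled CPM in low and 10129 and 10962 in high cells of plates 1 and 2. Both low sums were above both high sums, and the log2 fold change was -0.19 ± 0.051 (SE, adjusted p = 0.0171, edgeR's quasi-likelihood test, plate as block, Benjamini-Hochberg over 8348 genes). mt-Nd2 had 11973 and 11794 in low and 10340 and 10558 in high cells, again without overlap, and changed by -0.19 ± 0.051 (SE, adjusted p = 0.0266, edgeR). Scaled to all mitochondrial counts, the fold changes were 0.05 and 0.06. Here and below, lack of overlap between groups of 2 sums carries little weight alone. Its share over all genes was not counted.

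These 2 of the 7 mRNAs were called lower at an adjusted p under 0.1 and 0 higher, where 1.26% of all genes tested were called lower, 0.886% higher and 2.14% in either direction. mt-Nd4, a proton-pumping subunit of the membrane arm, had 12672 and 11736 TMM-scaled CPM in low and 11249 and 11157 in high cells (log2 fold change -0.12 ± 0.051, adjusted p = 0.293, edgeR). mt-Nd5, the pumping subunit at the far end of that arm, had 7294 and 8189 in low and 6420 and 7660 in high cells, a difference seen on each plate but smaller than the one between plates (-0.14 ± 0.055, adjusted p = 0.234, edgeR). mt-Nd4l had 998 and 1139 in low and 908 and 1029 in high cells (-0.14 ± 0.083, adjusted p = 0.55, edgeR). Low and high sums overlapped for mt-Nd5 and mt-Nd4l and not for mt-Nd4, whose sign, like that of the other 2, turned when scaled to mitochondrial RNA.

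mt-Nd3, a small subunit near the hinge of the 2 arms, had 1505 and 1161 TMM-scaled CPM in low and 1628 and 1159 in high cells as deposited (log2 fold change 0.06 ± 0.077, adjusted p = 0.87, edgeR). With Gm28438 added, the values were 2866 and 2321 in low and 2718 and 1968 in high cells, and the fold change was -0.15 ± 0.067 (adjusted p = 0.322, edgeR). Its sign thus followed the handling of the cells above 99%: without them, the deposited values gave -0.06. mt-Nd6 had 84.2 and 123.9 TMM-scaled CPM in low and 94.3 and 131.2 in high cells, from 64 and 97 counts on plate 1, and 0.12 ± 0.18 as its log2 fold change (adjusted p = 0.898, edgeR). A count of mt-Nd6 was found in 53.6% of all cells. After thinning every cell to 5000 counts, 31.9% of 72 low (95% exact binomial interval 21.4% to 43.99%) and 31.5% of 73 high cells (21.1% to 43.4%) of plate 1 had one, and 42.2% of 64 low (29.9% to 55.2%) and 38% of 50 high (24.7% to 52.8%) of plate 2. The unthinned shares were 38.9% of 95, 53.6% of 84, 65.3% of 72 and 64.2% of 53 cells in the same order, so the gap between low and high cells of plate 1 stood in the unthinned shares and not in the thinned ones. The intervals cover counting error only, and every cell carries mitochondrial DNA, so no cell type without the gene was there to set a background.

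The calls of mt-Nd1 and mt-Nd2 were lost when cells of similar depth were compared. When only cells with 8000 to 16000 counts were summed (44 low and 37 high of plate 1, 43 and 20 of plate 2), a choice made after seeing the data, their log2 fold changes were 0.003 (adjusted p = 0.996, edgeR) and 0.007 (adjusted p = 0.996, edgeR). With each cell thinned to 5000 counts they were -0.09 and -0.10, and with each cell weighted equally -0.05 and -0.03, and none of these was called. In the band and after thinning, a smaller share of all genes was called than in all cells, from 6735 and 5620 genes tested. With cells weighted equally that share did not fall. Whether the calls were lost to matched depth or to fewer cells and counts was not tested. Without the plate as a block, 0 of 7 were called. DESeq2 called 0 of the 6 it gave an adjusted p (none for mt-Nd6), and limma voom called 4 lower. Scaled to all mitochondrial counts, 2 members, mt-Nd3 (0.30) and mt-Nd4 (0.12), were called higher and 0 lower. Of the 8348 genes, 925 were called higher under this scaling and 47 lower.

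**Figure D3:**
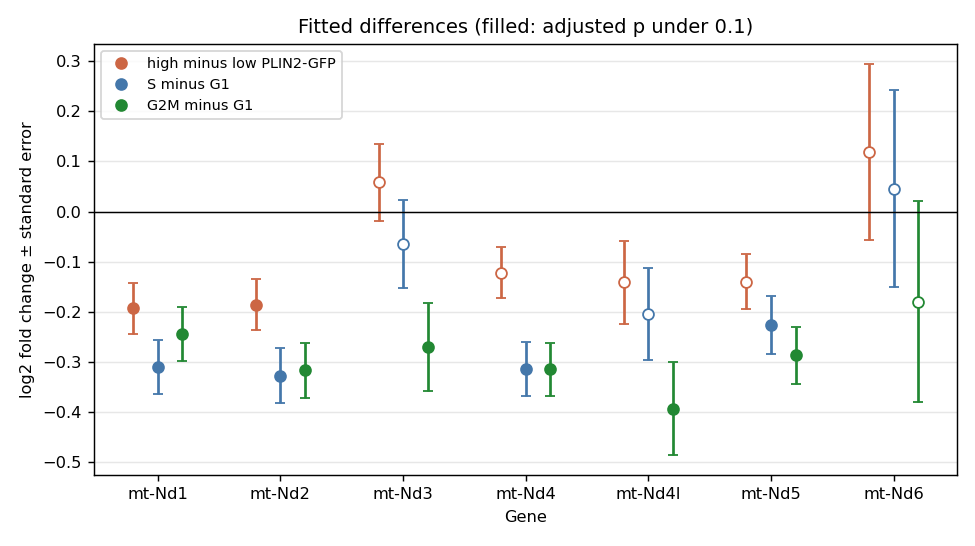
Log2 fold changes (points) with standard errors (bars) of the 7 mRNAs from edgeR for high minus low cells, S minus G1 and G2M minus G1, filled where the adjusted p was under 0.1, on the scale of all counts. mt-Nd1 and mt-Nd2 are filled in all 3, although the high minus low values turned to 0.05 and 0.06, and the mt-Nd1 values in S and G2M to 0.003 and 0.065, when scaled to all mitochondrial RNA.

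The phase that the authors assigned to each cell from its cell cycle genes was compared next, since these cells proliferate and on plate 1 G1 held 49 of 95 cells sorted as low and 32 of 84 sorted as high, and on plate 2 31 of 72 and 20 of 53. G1 cells had the highest level of mt-Nd1, mt-Nd2, mt-Nd4 and mt-Nd5 on both plates relative to all counts. In G2M against G1, 6 of 7 mRNAs were called lower, where 7.4% of the 7650 genes tested were called lower, and in S against G1 4 of 7, where 5.19% were. None was called higher in either, where 9.01% and 7.56% of genes were. DESeq2 called 4 of 7 in G2M and 3 of 7 in S, and without the plate as a block edgeR called 2 and 1. Scaled to the 13 mitochondrial mRNAs, 0 members were called in G2M and 1, mt-Nd3, was called higher in S, while the S values of mt-Nd1, mt-Nd4 and mt-Nd5 turned to 0.010, 0.0058 and 0.093. Under this scaling 1722 and 1682 of the 7650 genes were called higher in G2M and in S.

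mt-Nd4 had 13408 and 13579 TMM-scaled CPM in G1, 11036 and 10670 in S, and 10897 and 10791 in G2M on plates 1 and 2. Neither later phase overlapped G1, with log2 fold changes of -0.31 ± 0.054 in S (adjusted p = 0.000186, edgeR) and -0.32 ± 0.054 in G2M (adjusted p = 9.67e-05, edgeR). mt-Nd2 had 12389 and 13479 in G1, 10370 and 10227 in S, and 10182 and 10573 in G2M. It changed by -0.33 ± 0.055 in S (adjusted p = 0.000164, edgeR) and by -0.32 ± 0.055 in G2M (adjusted p = 0.000136, edgeR), and again no S or G2M sum reached a G1 sum. mt-Nd1 had 12076 and 13583 in G1, 10073 and 10596 in S, and 10377 and 11269 in G2M. Its fold changes were -0.31 ± 0.054 (adjusted p = 0.000257, edgeR) and -0.24 ± 0.054 (adjusted p = 0.00225, edgeR).

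mt-Nd5 had 7558 and 9114 TMM-scaled CPM in G1, 6588 and 7635 in S, and 6191 and 7469 in G2M, so the phases overlapped across plates but, relative to all counts, kept the order G1 above S above G2M on each. It changed by -0.23 ± 0.058 in S (adjusted p = 0.0106, edgeR) and by -0.29 ± 0.058 in G2M (adjusted p = 0.000756, edgeR). mt-Nd4l had 1126 and 1188 in G1, 906 and 1115 in S, and 782 and 997 in G2M. It was called in G2M (-0.39 ± 0.093, adjusted p = 0.00382, edgeR) and not in S (-0.20 ± 0.092, adjusted p = 0.183, edgeR).

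mt-Nd3 as deposited had 1741 and 1223 TMM-scaled CPM in G1, 1516 and 1287 in S, and 1460 and 1000.5 in G2M, and was called lower in G2M (-0.27 ± 0.088, adjusted p = 0.0411, edgeR) but not in S (-0.06 ± 0.088, adjusted p = 0.739, edgeR). With Gm28438 added, it was also called lower in S (-0.22 ± 0.072, adjusted p = 0.051, edgeR), from 3134 and 2395 in G1 to 2567 and 2151 TMM-scaled CPM in S. mt-Nd6 was called in neither (0.05 ± 0.20 in S, -0.18 ± 0.20 in G2M), with 93.3 and 133.1 TMM-scaled CPM in G1, 92.4 and 140.7 in S, and 86.7 and 112.04 in G2M, from 42 to 82 counts a sum. Between S and G2M, edgeR called 0 of the 7 mRNAs, with 1 at an unadjusted p under 0.05, and DESeq2 and limma voom called 0, where 4.85% of genes were called, 2.09% lower and 2.76% higher. The phases differed in depth, with a median of 9049 counts per cell in G1, 13560 in S and 11333 in G2M. Within cells of 8000 to 16000 counts, 5 of 7 were called lower in S and 6 of 7 in G2M. Of the 5292 genes tested in these cells, 489 were called in either direction in S and 674 in G2M. That band was chosen after seeing the data, and the part of depth in the phase differences was not tested. No member's difference between high and low cells was called to depend on the phase (0 of 7 by edgeR, DESeq2 and limma voom, with 1, mt-Nd3, at an unadjusted p under 0.05; 0.0487% of genes were called).

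**Figure D4:**
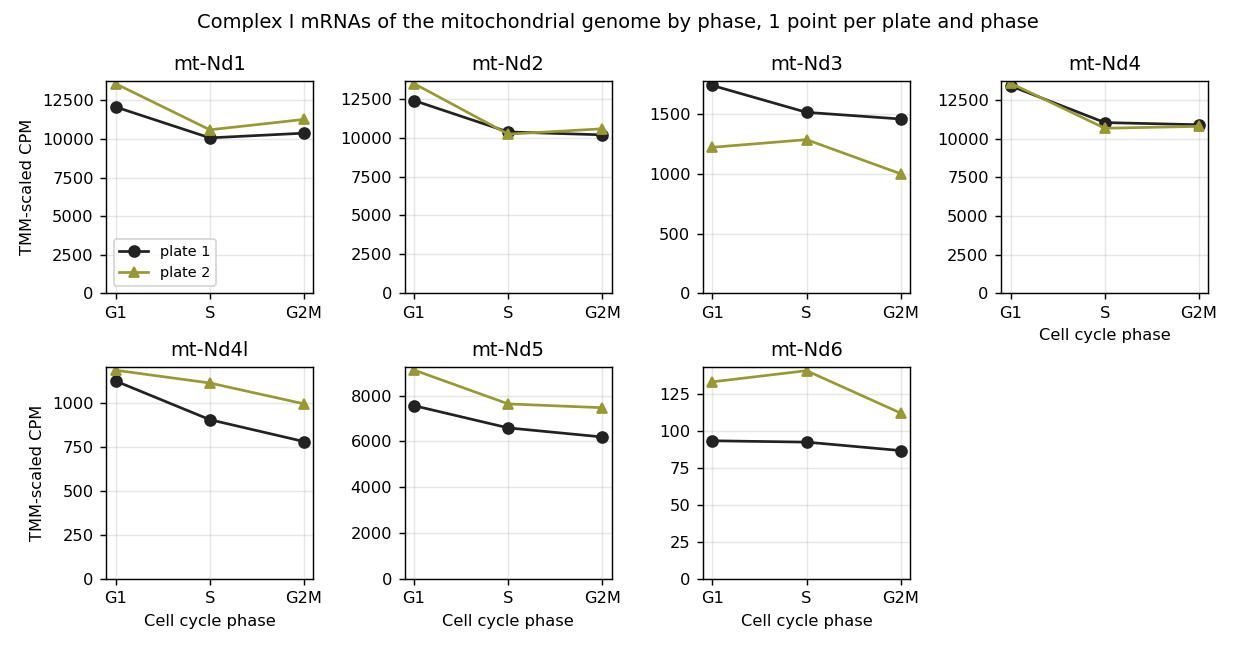
TMM-scaled CPM of each mRNA (y axis from 0) in G1, S and G2M cells, with 1 point per plate and phase and a line for each plate. mt-Nd1, mt-Nd2, mt-Nd4 and mt-Nd5 are highest in G1 on both plates relative to all counts, an order that mt-Nd1, mt-Nd4 and mt-Nd5 did not keep in S when scaled to the 13 mitochondrial mRNAs, while mt-Nd3 and mt-Nd6 are highest in S on plate 2.

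The share of the 7 mRNAs among the 13 mitochondrial mRNAs was 46.9% in low and 47.6% in high cells of plate 1, and 50.1% and 51.5% on plate 2. By phase it was 46.97%, 47.8% and 47.3% in G1, S and G2M of plate 1, and 50.4%, 51.6% and 50.2% on plate 2. All mitochondrial genes together made up 13.6% of counts in G1 cells of plate 1 against 11.6% in S and 11.3% in G2M, and 13.1%, 11.1% and 10.9% on plate 2. Relative to all counts, the other 6 mitochondrial mRNAs were all called lower in S and in G2M (6 of 6 in each, median log2 fold changes -0.36 and -0.29, beside -0.03 and -0.02 over all genes tested). In high cells 3 of the 6 were called lower, among them mt-Cytb, a complex III subunit (-0.24 ± 0.048, adjusted p = 0.00028, edgeR), and mt-Atp6, a subunit of ATP synthase (-0.24 ± 0.056). Both ribosomal RNAs were called lower in each of these 3 comparisons, and mt-Rnr2, the RNA of the large mitochondrial ribosomal subunit, had 28822 and 23976 TMM-scaled CPM in low and 20246 and 18564 in high cells (-0.44 ± 0.046). The median log2 fold change of the 7 members, -0.14 between high and low, compares with -0.22 for the other 6 mRNAs and -0.38 for the ribosomal RNAs.

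Between plates, 3 members were called. In this test the low and high sums of a plate stood as its replicates, although they share that plate. Its p-values therefore describe a difference between these 2 plates alone. mt-Nd5 was higher on plate 2 (log2 fold change 0.21 ± 0.055, adjusted p = 0.00736, edgeR), as was mt-Nd6 (0.51 ± 0.18, adjusted p = 0.068, edgeR), and mt-Nd3 was lower (-0.43 ± 0.077, adjusted p = 7.77e-06, edgeR). Thus 2 of 7 were called higher and 1 lower, where 2.93% and 3.81% of genes were, or 6.74% in either direction. In cells of 8000 to 16000 counts, mt-Nd3 had -0.05 and mt-Nd6 0.11, and neither was called, while mt-Nd5 (0.25) and mt-Nd1 (0.22) were called higher. When scaled to the 13 mitochondrial mRNAs or to all mitochondrial genes, 5 were called higher and 1 lower.

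Of the nuclear complex I genes tested, 0 were called between the PLIN2-GFP categories, where 2.14% of all genes were, a share that amounts to less than 1 gene in lists of this size. DESeq2 left 7930 of the 8348 genes without an adjusted p in this comparison, so its counts of 0 say little. Of 7 core subunits of the matrix arm edgeR called 0 (0 at an unadjusted p under 0.05, 0 by DESeq2 and 0 by limma voom), with a median log2 fold change of 0.05. Ndufv2, an iron-sulfur subunit and the most counted of them, had 0.16 ± 0.10. Of 29 accessory subunits tested, 0 were called (4 at an unadjusted p under 0.05, 0 by DESeq2 and limma voom), with a median of 0.09, beside -0.00 over all genes, and Ndufc2 had 0.19 ± 0.083. Of 11 assembly factors tested, 0 were called (2 at an unadjusted p under 0.05, 0 by either other tool), with a median of 0.07. Whether nuclear and mitochondrial subunits differ in their response was not tested.

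Against G1, most nuclear accessory subunits had values below 0. In S, 29 of 29 accessory and 7 of 7 core subunits had a log2 fold change below 0, with medians of -0.27 and -0.32, and 3 and 1 were called lower, where 5.19% of genes were, among them Ndufc2 (-0.32 ± 0.089, adjusted p = 0.0205, edgeR) and Ndufs8, an iron-sulfur subunit (-0.51 ± 0.17, adjusted p = 0.0587, edgeR). In G2M, 24 of 29 accessory subunits lay below 0, with a median of -0.20, and 4 were called lower, where 7.4% of genes were, such as Ndufa1 (-0.87 ± 0.28). DESeq2 called 0 accessory subunits in either. In G2M against S, 20 of 29 accessory subunits lay above 0, with a median of 0.09, and 1, Ndufab1, the mitochondrial acyl carrier protein, was called higher (0.43 ± 0.12, adjusted p = 0.0444, edgeR), where 2.76% of genes were. The 7 core subunits had a median of 0.23 there and 0 were called (2 at an unadjusted p under 0.05, 0 by DESeq2, 1 by limma voom). Of 8 assembly factors tested, 1, Ndufaf8, was called lower in S (-1.48 ± 0.48, adjusted p = 0.0486, edgeR), and DESeq2 and limma voom called 0 there. Ndufaf8 was counted little, with 41.2 and 20.5 TMM-scaled CPM in G1 and 17.6 and 5.15 in S on plates 1 and 2. In G2M 0 assembly factors were called (1 at an unadjusted p under 0.05, 0 by either other tool).

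Of the genes for mitochondrial transcription, RNA processing and stability, 17 of 24 were tested between the categories and 1 was called, where 2.14% of genes were. Rexo2, a mitochondrial oligoribonuclease, had 136.8 and 148.1 TMM-scaled CPM in low and 189.6 and 240.5 in high cells, without overlap (0.59 ± 0.15, adjusted p = 0.00975, edgeR), while the list's median was -0.01. Without the plate as a block 0 genes of any kind were called higher, and DESeq2 called 0 of this list. By phase, 1 of 15 was called higher in S, Grsf1, a protein of mitochondrial RNA granules (0.76 ± 0.24, adjusted p = 0.0463, edgeR), and 1 lower in G2M, Fastk (-0.83 ± 0.32, adjusted p = 0.0904, edgeR), where 12.7% and 16.4% of genes were called in either direction, and DESeq2 called 0 of the list in both. Of 6 genes of mitochondrial DNA replication, 3 were tested between the categories and 2 between phases, and 0 were called in any of them (0 at an unadjusted p under 0.05 between the categories, in S or in G2M, and 0 by DESeq2 and limma voom). Of 11 stress genes 3 were tested, 0 were called between the categories (0 at an unadjusted p under 0.05, 0 by either other tool), and Fos was called lower in S (-0.42 ± 0.14) and in G2M (-0.96 ± 0.15).

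In single cells, the summed level of the 7 mRNAs had a median of 45099 CPM in low and 41718 in high cells of plate 1 and of 44409 and 45504 on plate 2, and ranged from 19524 to 106909 CPM over all cells. It was correlated with the total counts of the cell in each plate and category, with a Spearman correlation from -0.78 to -0.46 (n = 53 to 95 cells a group), where the total is also the divisor of CPM. mt-Nd1, mt-Nd2 and mt-Nd4 showed this in every group, with means of -0.68, -0.65 and -0.63 over the 4 groups, whereas mt-Nd5 and mt-Nd3 had -0.18 and -0.17, mt-Nd4l 0.22 and mt-Nd6 0.26. mt-Nd3, mt-Nd4l and mt-Nd6 have few counts per cell and so carry more counting noise.

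The cells above and below the median total of their group were also summed apart. These sums had TMM factors of their own, so their levels are not on the scale of the 4 sums above. For example, mt-Nd5 in low cells of plate 1 had 8170 in shallower and 8075 in deeper cells, beside 7294 in all of them together. Differences between shallower and deeper sums depend on these factors and were not tested. mt-Nd1 had 15560 TMM-scaled CPM in the shallower and 12313 in the deeper low cells of plate 1, and 14763 and 10020 in the high cells. On plate 2 it had 16290 and 11843 in low and 16397 and 10167 in high cells. mt-Nd4l went the other way, with 967 in shallower and 1170 in deeper low cells and 918 and 1042 in high cells of plate 1, and 1207 and 1256, and 918.5 and 1209, on plate 2. mt-Nd5 was higher in shallower cells of each group, from 7810 to 9834 in shallower and from 6898 to 8493 in deeper cells. mt-Nd3, whose mean correlation with the total was near that of mt-Nd5, was also higher in the shallower cells of all 4 groups. On plate 1 it had 1938 and 1561 TMM-scaled CPM in shallower and deeper low cells, where its correlation with the total was 0.02, and 2019 and 1736 in high cells. On plate 2 it had 1559 and 1128 in low and 2083 and 929.5 in high cells, a ratio above that of mt-Nd1 in the latter. mt-Nd6 had 95.6 in shallower and 92.7 in deeper low cells of plate 1, against the sign of its correlation, and was higher in deeper cells of the other 3 groups, from 14 to 26 counts in the shallower sums.

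With the percentage of mitochondrial counts, of which they are part, the 7 mRNAs together had correlations of 0.79 to 0.90 across cells. With the share of the other mitochondrial genes, from which the members were left out, the correlation was 0.57 to 0.76. For single members the mean over the 4 groups was 0.71 for mt-Nd4, 0.60 for mt-Nd5, 0.60 for mt-Nd2, 0.53 for mt-Nd1, 0.35 for mt-Nd4l, 0.20 for mt-Nd3 and 0.00 for mt-Nd6. Among members, mt-Nd1 and mt-Nd2 were most alike (mean 0.84), then mt-Nd2 and mt-Nd4 (0.75) and mt-Nd1 and mt-Nd4 (0.69). The values of a pair share the cells and their totals.

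**Figure D5:**
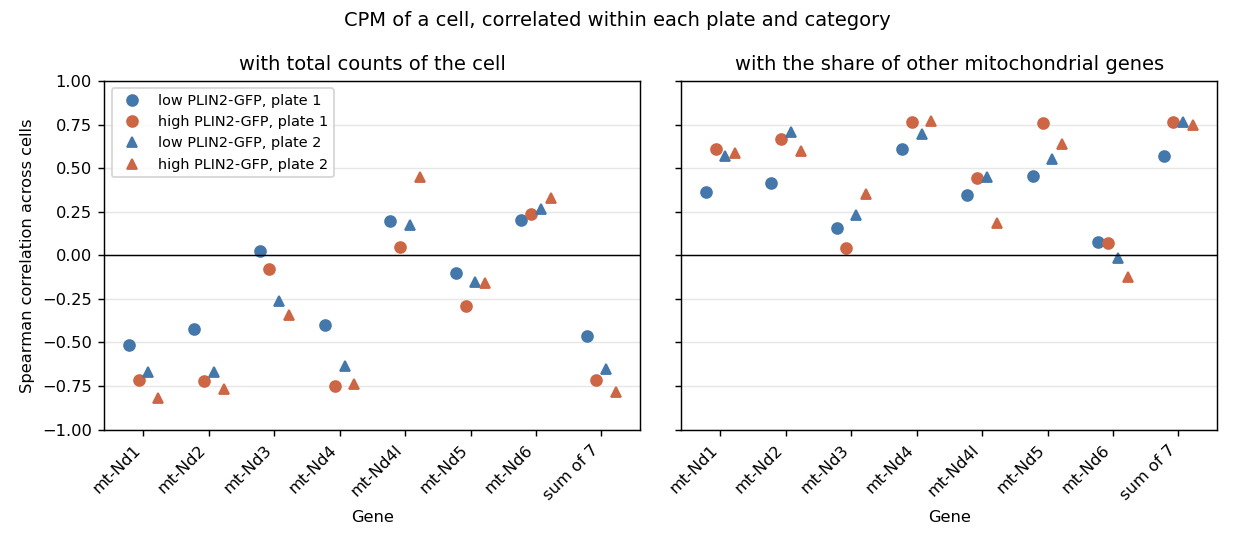
Spearman correlation across cells (y axis) between the CPM of each mRNA, or of the 7 summed, and the total counts of the cell (left) or the share of other mitochondrial genes (right), with 1 point per plate and category. With the total, mt-Nd1, mt-Nd2 and mt-Nd4 lie between -0.82 and -0.40 and mt-Nd4l and mt-Nd6 between 0.05 and 0.45.

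Among 2090 other genes with a mean of at least 1 count per cell, mt-Cytb (mean correlation 0.87 over the 4 groups), mt-Atp6 (0.81) and mt-Co2, a subunit of cytochrome oxidase (0.52), were the mitochondrial mRNAs most like the summed members, while mt-Co1 had 0.10. The 3 nuclear genes highest on this measure were Gm10925 (0.81), Gm28438 (0.44) and Gnas, a G protein subunit (0.38), beside a median of -0.13 over 2082 nuclear genes. Gm10925 (chr1:24613974-24614651, minus strand) had the counts of mt-Atp6 in every cell and shares all 648 of its 31-base words with it, and Gm28438 is the copy of mt-Nd3 shown above.

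The 2 clusters of the authors' table were described without a test, since they were made from the same cells. mt-Nd1 had 10637 and 11227 TMM-scaled CPM in cluster 0 and 11670 and 12330 in cluster 1 of plates 1 and 2, and mt-Nd2 10978 and 10977 in cluster 0 and 11600 and 11769 in cluster 1. mt-Nd4 had 12283 and 11474 in cluster 0 and 11939 and 11761 in cluster 1, with opposite order on the 2 plates. mt-Nd6 had 98.4 and 132.3 in cluster 0 and 85.1 and 125.4 in cluster 1. Cluster 0 held 61 high cells of 92 on plate 1 and 40 of 63 on plate 2, and cluster 1 held 23 of 87 and 13 of 62, so cluster and category overlap in their cells.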

How the data were processed

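The authors assigned SORT-seq reads with Salmon/alevin to GRCm38 and deposited unnormalized estimated counts per gene for every cell, with a per-cell table of plate, category, phase, cluster, total and percent of mitochondrial counts. The versions and the annotation release are not given in the sources used here. The authors state a limit of 20% mitochondrial counts, yet 11 deposited cells reach it. The unnamed columns of the count table were joined to cells by equal total and number of genes.

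Counts were summed per plate and category (4 sums), per plate and phase (6) or per plate, category and phase (12), rounded, filtered with filterByExpr, TMM-scaled and tested with the quasi-likelihood test of edgeR 4.0.16 in R 4.3.3, with the plate as a block, Benjamini-Hochberg adjustment over all genes tested and a threshold of 0.1. Standard errors follow from the fold change and its F statistic. The plate pairs the sums, since cells of both categories share it: deviations from category means of same-plate sums correlated at 0.291 over 8348 genes. The residual degrees of freedom were 1, 2 and 5, so the spread is borrowed from all genes. Alternatives used DESeq2 1.42.0 (adjusted p missing for mt-Nd6 between categories and between plates), limma 3.58.1, other scalings, filters and cells. Copies were nuclear transcripts of GENCODE M21 sharing at least 100 words of 31 bases with a member. The model was tested on simulated data. The named genes are all 7 members, and in each list up to 2 called genes per direction by lowest p, otherwise the 2 most counted; 1 such gene is not reported here. Members, lists and alternatives were chosen with earlier results of these data known. Intervals are exact binomial ones of 95%.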

Additional observations from a re-analysis of the deposited data

How the results depend on the processing

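Depth limits mt-Nd6 most, with 365 counts in all, and the test on 4 sums leaves 1 residual degree of freedom. Between high and low cells, 2 members were called. The number was 0 without the replicate block, with DESeq2 (of 6 with an adjusted p), with cells thinned to 5000, with cells under 10% mitochondrial counts, with each cell weighted equally, in G1 cells alone, in cluster 1 alone, and in cells with 8000 to 16000 counts. It was 4 with limma voom and in cluster 0 alone, 1 (higher) when scaled to the 13 mitochondrial mRNAs and 2 (both higher) when scaled to all mitochondrial genes. Leaving out any 1 sum, with no block, gave 0 to 0, while mt-Nd1 stayed between -0.24 and -0.13, with the spread of the remaining single sum taken from the other category. Of all genes, 2.14% were called, but 1 gene without the block and 11 with DESeq2.

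In S against G1, 4 were called. There were 1 without the replicate block, 1 (higher) scaled to either mitochondrial total and 0 with cells under 10%, which left 3 G1 cells. Of 7650 genes, the scalings to the 13 mRNAs and to all mitochondrial genes called 1682 and 1640 higher. Leaving out 1 sum gave 4 to 5. In G2M against G1, 6 were called. There were 2 without the replicate block, 0 scaled to either mitochondrial total or with cells under 10%, and 4 to 6 when 1 sum was left out. For G2M against S the count of 0 became 1 without the S sum of plate 1, a range of 0 to 1. Between plates 3 were called, 1 with DESeq2, 6 with either mitochondrial scaling and 0 with cells under 10%. The interaction had 0 called under all alternatives run, and it could not be fitted to cells under 10%, since a sum was empty.

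Log2 fold changes that changed sign follow. The mitochondrial scalings moved the median of all genes up by 0.18 and 0.24 between categories, by 0.29 and 0.28 in S and by 0.28 and 0.29 in G2M, which by construction moves members. Scaled to the 13 mRNAs, high against low gave 0.060 for mt-Nd4, 0.041 for mt-Nd4l and 0.043 for mt-Nd5. S gave 0.010 for mt-Nd1, 0.25 for mt-Nd3 (called), 0.0058 for mt-Nd4, 0.12 for mt-Nd4l and 0.093 for mt-Nd5. G2M gave 0.050 for mt-Nd1, 0.022 for mt-Nd3, 0.0062 for mt-Nd5 and 0.11 for mt-Nd6. Scaled to all mitochondrial genes, high against low gave 0.049 for mt-Nd1, 0.057 for mt-Nd2, 0.12 for mt-Nd4 (called), 0.10 for mt-Nd4l and 0.10 for mt-Nd5. S gave 0.0032 for mt-Nd1, 0.25 for mt-Nd3 (called), 0.11 for mt-Nd4l and 0.086 for mt-Nd5. G2M gave 0.065 for mt-Nd1, 0.038 for mt-Nd3, 0.022 for mt-Nd5 and 0.13 for mt-Nd6.

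Cells under 10% gave, for high against low, 0.0049 for mt-Nd4l, 0.039 for mt-Nd5 and -0.15 for mt-Nd6. In S they gave 0.018 for mt-Nd2, 0.38 for mt-Nd3, 0.096 for mt-Nd4, 0.47 for mt-Nd4l and -0.92 for mt-Nd6, and in G2M 0.087 for mt-Nd1, 0.011 for mt-Nd2, 0.014 for mt-Nd3, 0.17 for mt-Nd4 and 0.23 for mt-Nd4l. Cells of 8000 to 16000 counts gave 0.0030 for mt-Nd1, 0.0070 for mt-Nd2 and 0.061 for mt-Nd4 between categories, and 0.024 for mt-Nd3 and -0.072 for mt-Nd6 in S. Between categories mt-Nd3 had -0.15 with copies added, -0.059 without the cells above 99% and -0.17 in G1 cells, mt-Nd4 0.038 with equal weights, mt-Nd4l 0.021 in cluster 1 and mt-Nd6 -0.071 with thinned cells. The copies, the band and the cells above 99% were chosen after seeing the data. In S mt-Nd3 had 0.014 with library size alone and 0.19 in high cells, and mt-Nd6 -0.0068 in low cells. In G2M mt-Nd6 had 0.0096 with equal weights. Leaving out 1 sum, mt-Nd3 ranged from -0.20 to 0.29 and mt-Nd6 from -0.14 to 0.41 between categories, and in S from -0.20 to 0.092 and from -0.040 to 0.12. Where no construction is named, the cause was not tested.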
